A study of Mus musculus with 2 samples.

Results

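Ccr7, S1pr1, Klf2, Cxcr3, Cxcr4, Cxcr5, Cxcr6, Cd69 and Itgae are 9 genes that govern where lymphocytes and dendritic cells go, when they leave and whether they stay. They were taken by symbol from the 22620 genes of the deposited files, and all 9 were found. Each was followed in B cells, T cell subsets, NK cells and dendritic cells (DCs) of EO771-HEVM3 primary tumours and the paired lymph nodes (LNs) of C57BL/6J mice. EO771 cells come from a mouse mammary cancer, and the study uses the HEVM3 subline for tumour cells that spread through the high endothelial venules of LNs. There was 1 single-cell RNA library of each tissue, and the tissues of 6 mice were pooled in it, so no cell can be assigned to a mouse. The tumours were digested for 2 h with collagenases I and III and hyaluronidase and the LNs for 1 h with collagenase P, dispase and DNase, both at 37 °C. Tissue and digestion therefore cannot be told apart. A single library per tissue leaves every difference without a check in replicates, so nothing was tested. A level is the number of unique molecular identifiers (UMIs) of a gene per 1000000 UMIs (CPM) summed over the cells of a class. Brackets hold exact 95% Poisson intervals for levels, exact Clopper-Pearson intervals for shares and exact binomial intervals of the split of both counts for ratios, and all cover counting error only.

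CCR7 is the receptor for CCL19 and CCL21, which bring naive lymphocytes through high endothelial venules and mature DCs through lymph vessels into the T cell zone. S1PR1 senses sphingosine 1-phosphate and lets lymphocytes leave into lymph and blood. The transcription factor KLF2 switches on S1pr1 in resting lymphocytes, while CD69, an early activation protein, binds S1PR1 and takes it off the surface. CXCR3 follows CXCL9 and CXCL10, CXCR4 follows CXCL12, CXCR5 follows CXCL13 into B cell follicles and CXCR6 binds CXCL16. Itgae encodes the integrin chain CD103, which with its partner binds E-cadherin on epithelium, and together with CD69 and CXCR6 it is a common mark of T cells that reside in tissue.

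In GRCm38, Ccr7 (ENSMUSG00000037944) lies on chromosome 11 at 99144196 to 99155077 on the minus strand and Itgae (ENSMUSG00000005947) on chromosome 11 at 73090583 to 73147446 on the plus strand. S1pr1 (ENSMUSG00000045092) lies on chromosome 3 at 115710433 to 115715072, minus strand, and Cd69 (ENSMUSG00000030156) on chromosome 6 at 129267325 to 129275436, minus strand. Klf2 (ENSMUSG00000055148) lies on chromosome 8 at 72319033 to 72321656, plus strand, and Cxcr4 (ENSMUSG00000045382) on chromosome 1 at 128588199 to 128592293, minus strand. Cxcr3 (ENSMUSG00000050232) lies on chromosome X at 101731535 to 101734269, minus strand. Cxcr5 (ENSMUSG00000047880), at 44511787 to 44561877 on the minus strand, and Cxcr6 (ENSMUSG00000048521), at 123806475 to 123811760 on the plus strand, both lie on chromosome 9. Gene models on the opposite strand overlap those of 3 members, Bcl9l that of Cxcr5, Fyco1 that of Cxcr6 and Haspin that of Itgae.

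Promoter sequences were held for 4 of the 9 members. They are shown because these members, Klf2, Cxcr3, Cxcr4 and Cxcr6, were each at least 2-fold apart between the CD8 T cells of the 2 tissues. They are from RefSeq (GRCm38.p6), 5′ to 3′ on the gene's own strand, and end 1 base before the more upstream of the RefSeq and GENCODE starts. Capitals mark a RUNX motif (TGTGGT on either strand) in Cxcr6 and GC boxes (GGGCGG on either strand) in Klf2 and Cxcr4. The Cxcr6 window is chr9:123806227-123806474 (plus), that of Klf2 chr8:72318812-72319032 (plus), that of Cxcr4 chr1:128592300-128592549 (minus) and that of Cxcr3 chrX:101734270-101734397 (minus).
Cxcr6: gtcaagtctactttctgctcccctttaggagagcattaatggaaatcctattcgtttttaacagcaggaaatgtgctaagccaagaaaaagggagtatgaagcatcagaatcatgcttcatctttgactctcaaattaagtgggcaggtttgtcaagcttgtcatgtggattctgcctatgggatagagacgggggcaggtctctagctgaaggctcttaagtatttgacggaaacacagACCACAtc
Klf2: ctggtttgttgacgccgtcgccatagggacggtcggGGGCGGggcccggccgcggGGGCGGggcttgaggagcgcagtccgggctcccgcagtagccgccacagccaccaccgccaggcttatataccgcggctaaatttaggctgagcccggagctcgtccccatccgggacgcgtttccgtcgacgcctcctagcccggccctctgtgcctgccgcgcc
Cxcr4: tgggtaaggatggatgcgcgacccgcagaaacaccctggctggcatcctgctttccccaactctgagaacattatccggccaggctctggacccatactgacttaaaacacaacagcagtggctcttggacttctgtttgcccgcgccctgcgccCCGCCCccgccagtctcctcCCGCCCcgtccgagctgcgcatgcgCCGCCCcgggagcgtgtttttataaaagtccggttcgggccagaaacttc
Cxcr3: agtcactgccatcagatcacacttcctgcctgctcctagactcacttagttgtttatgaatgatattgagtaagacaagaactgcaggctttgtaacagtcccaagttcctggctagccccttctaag
The Cxcr6 window held 1 RUNX motif close to the start, as did at least 1 in 14.0% of the 32851 windows of the same length and place in the table. Klf2 held 2 GC boxes and Cxcr4 held 3, against 28.7% and 32.7% of windows of their lengths with at least 1. The Cxcr3 window held neither motif. A FOXO motif (GTAAACA) and a T-box motif (AGGTGTGA), searched on both strands, were in none of the 4 windows. A match of letters is a description and not a binding site. Ccr7, S1pr1, Cxcr5, Cd69 and Itgae had no entry.

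After limits and removal of doublets, 8673 of the 9689 kept LN cells and 663 of the 8756 kept primary tumour cells were in the lymphocyte and DC classes. Class names are short for cells like that type by fixed markers, and were rebuilt from the counts. Each class carried its defining markers, with Cd79a at 3144 CPM in LN IgD+ CD23+ B cells, Foxp3 at 228 CPM and 460.1 CPM in regulatory T cells of LN and primary tumour, and Fscn1 at 2512 CPM and 3763 CPM in mature DCs. The names were set by these markers, so their levels are no check of the names. LN conventional DCs also carried B lineage RNA, with Jchain at 790.3 CPM and Cd79a at 102 CPM. The primary tumour had 8 IgD+ CD23+ B cells, 6 conventional DCs, 6 plasmacytoid DCs and 1 conventional CD4 T cell, under the 20 cells set as a minimum, so these classes are described in the LN only. The libraries shared 47 cell barcodes, and 3 of them were in these classes in both.

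Cancer cells served as a measure of free RNA for genes they should lack. Cells with under 1000 UMIs were left out of thinned shares, and each other cell was thinned to 1000 UMIs. A Ccr7 UMI was then found in 2.1% of LN cancer cells and 0.116% of primary tumour cancer cells, and a Cxcr6 UMI in 0% [0 to 0.595] and 0.0992% [0.0364 to 0.216]. An S1pr1 UMI was found in 0.809% and 0.463%. Median depth before thinning was 34703 and 14042 UMIs. Unthinned, Ccr7 was in 19.2% and 0.685% of these cells, and S1pr1 in 17.8% and 6.75%. Summed levels were 13.5 and 0.751 CPM of Ccr7, and 7.36 and 5.24 CPM of S1pr1. Free RNA can be a smaller part of the UMIs of deep cells, so the thinned shares do not limit it in shallower lymphocytes. Klf2 cannot be judged from cancer cells, since those of the primary tumour had it at 506 CPM [501 to 510.2] and in 35.5% of cells.

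**Figure D1:**
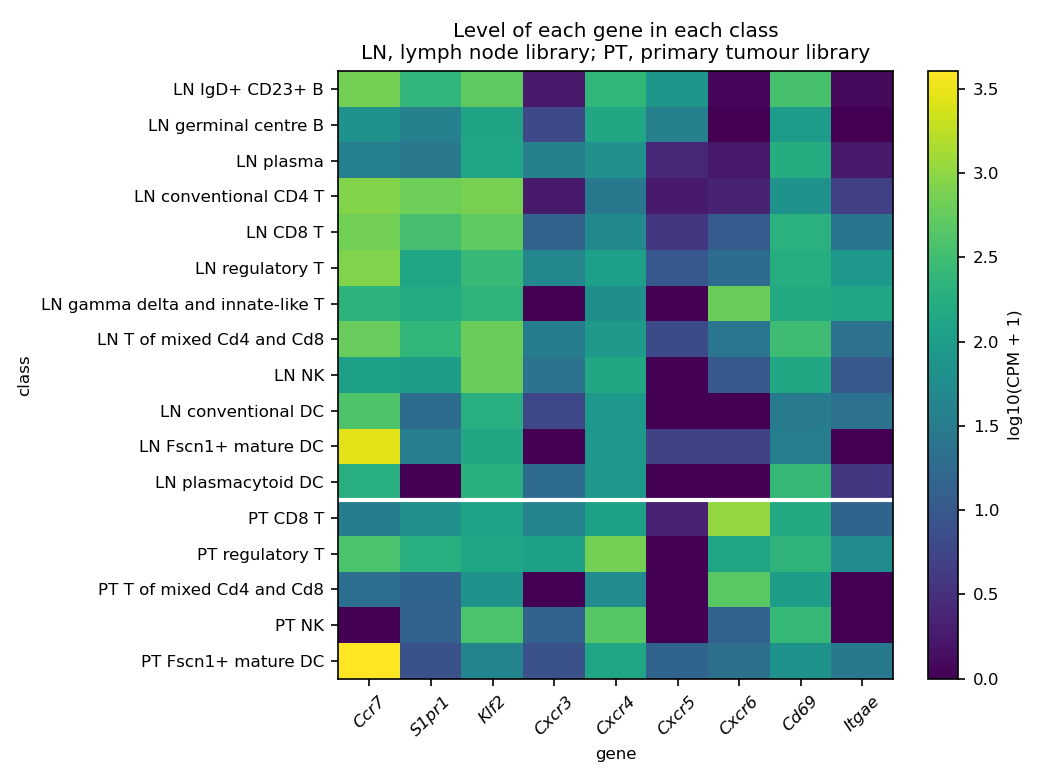
Level of the 9 genes (columns, log10 of CPM + 1 as colour) in each lymphocyte and DC class (rows) of the lymph node (LN, above the white line) and primary tumour (PT) libraries. Ccr7 was highest in mature DCs of both tissues, and Cxcr6 was high in PT CD8 T cells and in LN gamma delta and innate-like T cells.

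The first question was which LN cells carry the entry receptor. Fscn1+ mature DCs, a state of DCs known for migration to LNs, had the highest LN level of Ccr7, 2814 CPM [2665 to 2969]. Conventional CD4 T cells followed with 863 CPM [826 to 901] and regulatory T cells with 831 CPM [772 to 893], and these intervals overlapped. IgD+ CD23+ B cells had 700.5 CPM [683 to 718] and CD8 T cells 695 CPM [673 to 718], which also overlapped. T cells of mixed Cd4 and Cd8, left between the subsets by their counts, had 588 CPM [562 to 615]. The level was lower in conventional DCs, 403 CPM [359.8 to 449], and lower again in gamma delta and innate-like T cells, plasmacytoid DCs and NK cells, at 214 CPM, 187 CPM and 109.7 CPM, where each interval overlapped the next. Of the 65 Ccr7 UMIs of plasmacytoid DCs, 37 were in 1 cell, and without it the level was 87.1 CPM, against 80.8 CPM in NK cells without their top cell. Germinal centre B cells and plasma cells, the late stages of the B cell response, were last with 69.0 CPM [51.5 to 90.5] and 34.8 CPM [25.4 to 46.6]. In thinned cells, a Ccr7 UMI was in 74.4% [64.2 to 83.1] of mature DCs, 52.9% [49.7 to 56.1] of conventional CD4 T cells and 2.94% [0.611 to 8.36] of plasma cells, and the last interval holds the 2.1% of LN cancer cells. Unthinned, it was in 81.2%, 77.0% and 20.6% of these cells, whose median UMIs were 4582, 2309 and 12124.5. LN cancer cells had it in 19.2% unthinned, at a median of 34703 UMIs.

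The exit receptor S1pr1 had another order. Conventional CD4 T cells had 639 CPM [607 to 672] and CD8 T cells 342 CPM [327 to 358], with intervals apart. T cells of mixed Cd4 and Cd8, with 246 CPM [229.8 to 264], overlapped IgD+ CD23+ B cells, with 233 CPM [223 to 243]. Gamma delta and innate-like T cells (163 CPM [120.0 to 216]), regulatory T cells (129 CPM [107 to 155]) and NK cells (101 CPM [63.0 to 152]) formed a series in which each overlapped its neighbour. LN regulatory T cells and conventional CD4 T cells thus overlapped in Ccr7, while their S1pr1 intervals were far apart. All DC classes were low, with 33.8 CPM [19.3 to 54.8] in mature DCs, 17.6 CPM [9.63 to 29.6] in conventional DCs and 0 UMIs in plasmacytoid DCs, which allows up to 8.63 CPM. Germinal centre B cells had 35.8 CPM [23.6 to 52.1] and plasma cells 26.3 CPM [18.2 to 36.8]. Klf2 was highest in conventional CD4 T cells, 734 CPM [699.7 to 769]. T cells of mixed Cd4 and Cd8 (614 CPM [587 to 641]), NK cells (608 CPM [509 to 721]), CD8 T cells (537 CPM [518 to 557]) and IgD+ CD23+ B cells (507 CPM [492 to 522]) followed, and each overlapped the next. Regulatory T cells had 258 CPM [226 to 294], and germinal centre B cells were lowest with 127 CPM [103 to 156], next to plasma cells at 129 CPM. This end of the order rests on single cells, since without the cell with most Klf2 the level was 119 CPM in germinal centre B cells, 97.5 CPM in plasma cells and 91.9 CPM in mature DCs.

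The follicle receptor Cxcr5 was highest in B cells. IgD+ CD23+ B cells had 80.7 CPM [74.9 to 86.8] and germinal centre B cells 35.8 CPM [23.6 to 52.1], and no other LN class exceeded the 8.98 CPM [3.88 to 17.7] of regulatory T cells. Among its 3 nearest genes over the 26 sums of class and library, by Pearson correlation of log2(CPM + 10), were the B cell genes Cd22 (r = 0.94) and Pax5 (r = 0.91). These correlations are descriptions over sums that share libraries and base composition. In the kept cells of the primary tumour, Cxcr5 had 3 UMIs in all. Cxcr4 was likewise highest in IgD+ CD23+ B cells, 246 CPM [235 to 256]. Germinal centre B cells, with 138 CPM [113 to 167], overlapped NK cells and regulatory T cells, at 137 CPM and 108 CPM, and conventional CD4 T cells were lowest with 27.3 CPM [21.1 to 34.8].

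The inflammatory receptor Cxcr3 was sparse in the LN, with 327 UMIs in all kept cells. Regulatory T cells had 44.9 CPM [32.1 to 61.1], T cells of mixed Cd4 and Cd8 32.8 CPM [26.9 to 39.6] and plasma cells 35.6 CPM [26.1 to 47.5], with overlapping intervals. CD8 T cells had 12.8 CPM [10.0 to 16.2]. Conventional CD4 T cells had 2 UMIs and IgD+ CD23+ B cells 7. Cxcr6 was concentrated in 1 LN class. Gamma delta and innate-like T cells had 627 CPM [540.0 to 724], and a UMI in 34.1% [24.5 to 44.7] of thinned cells. The next class, T cells of mixed Cd4 and Cd8, had 24.6 CPM [19.5 to 30.6]. The same gamma delta and innate-like cells had the highest level of Itgae, 136 CPM [96.9 to 185], which overlapped that of regulatory T cells, 82.0 CPM [64.2 to 103]. CD8 T cells were lower than both, with 24.2 CPM [20.3 to 28.7]. Gamma delta and innate-like T cells also had 214 CPM of Ccr7, the lowest of the LN T cell classes, and 163 CPM of S1pr1. Their stress list summed to 7468 CPM, the highest of the LN classes described, and its part in these levels was not tested. Among LN DCs, Itgae was found in conventional DCs, 21.4 CPM [12.5 to 34.3], and had 0 UMIs in mature DCs, which allows up to 6.33 CPM.

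Cd69 was highest in IgD+ CD23+ B cells, 355 CPM [343 to 368]. T cells of mixed Cd4 and Cd8 (304 CPM [285 to 323]), plasmacytoid DCs (247 CPM [198 to 306]) and CD8 T cells (200.01 CPM [188 to 212]) formed a series with overlapping neighbours. Of the 861 mixed T cells, 431 were in a subcluster led by Hspa1a and Jun, with 539.6 CPM of Cd69 and 1127 CPM of Klf2. The subclusters of that class led by Tnfsf8, H1f5 and Ifit3 had 155, 130 and 211 CPM of Cd69, and 266, 212 and 737 CPM of Klf2. Conventional CD4 T cells, highest in S1pr1 of all classes, had 68.1 CPM [58.0 to 79.4], and conventional and mature DCs were last with 30.2 CPM [19.4 to 44.9] and 33.8 CPM [19.3 to 54.8].

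The next question was how each gene differed between LN and primary tumour within a class, and 4 named classes had at least 20 cells in both. A gene was counted as apart when its levels differed at least 2-fold and the 2 sums together held at least 20 UMIs. The same was counted over all genes. In CD8 T cells (1449 in the LN, 484 in the primary tumour), 8 members had enough UMIs. Of these, 3 were at least 2-fold higher in the LN, where 6.24% of the 8989 genes were, and 3 were at least 2-fold higher in the primary tumour, where 31.1% of genes were. The median log2 ratio of LN over primary tumour was 0.56 over the members and -0.53 over all genes, and ratios centred on the latter would all be 0.53 higher. Mostly different subclusters held these cells in LN and primary tumour, though the members were left out of the clustering. Primary tumour CD8 T cells came from a subcluster led by Csf1, Ccl3 and Ccl4 (244 cells), one led by Cxcr4, Bhlhe40 and Ccl5 (164 cells) and one led by Serpine2, Prf1 and Havcr2 (75 cells). Of LN CD8 T cells, 1425 came from subclusters led by Fam241a and Rflnb (630 cells), by Bend4 and Fam241a (570 cells) and by Ly6c2 and Pde2a (225 cells), and 24 from the 3 subclusters of the primary tumour.

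**Figure D2:**
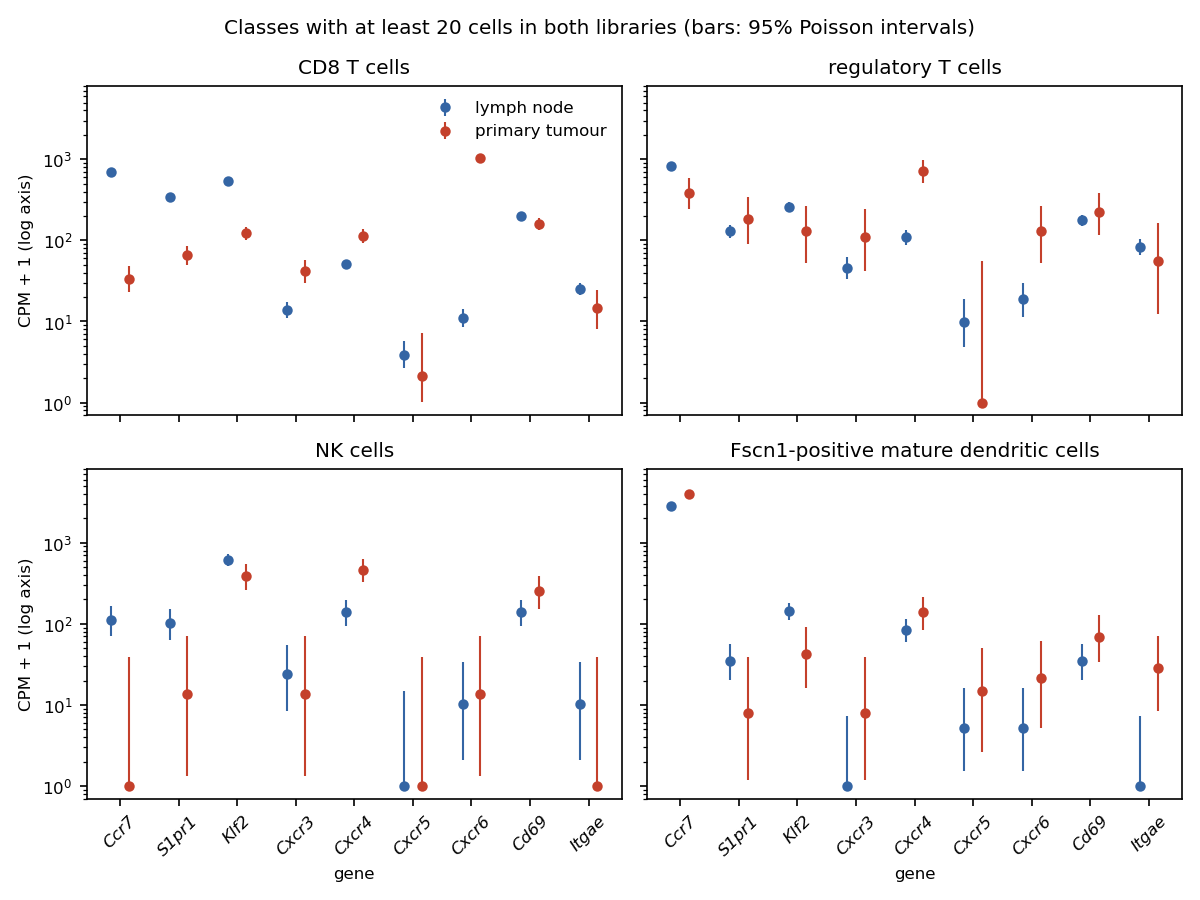
Level of each gene (CPM + 1, log axis) in the lymph node (blue) and primary tumour (red) cells of the 4 classes with at least 20 cells in both libraries. Points are sums over cells and bars 95% Poisson intervals. In CD8 T cells Ccr7, S1pr1 and Klf2 were higher in the lymph node and Cxcr6 higher in the primary tumour, while in mature dendritic cells Ccr7 was high in both.

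Cxcr6 was the member furthest apart. It had 56 UMIs in the LN and 918 in the primary tumour, or 10.1 CPM [7.64 to 13.1] and 1034 CPM [968 to 1103]. The 24 LN cells in subclusters mostly of primary tumour cells held 17 of the 56 LN UMIs, a level of 213 CPM [124 to 341] against 7.15 CPM [5.08 to 9.77] in the other 1425. The log2 ratio was -6.66 [-7.09 to -6.29], a level 101-fold higher in the primary tumour. In thinned cells a Cxcr6 UMI was in 1.04% [0.582 to 1.71] of LN and 57.8% [52.7 to 62.9] of primary tumour CD8 T cells, and without thinning in 2.55% and 66.3% at median depths of 3573 and 1505.5 UMIs. The thinned shares leave out 4 LN and 107 primary tumour cells with under 1000 UMIs. The primary tumour subcluster led by Cxcr4 was shallow, with a median of 1036 UMIs. Ccr7, at 695 CPM [673 to 718] in the LN, had 29 UMIs and 32.7 CPM [21.9 to 46.9] in the primary tumour, a log2 ratio of 4.39 [3.89 to 4.99]. S1pr1 had 342 CPM [327 to 358] and 64.2 CPM [48.6 to 83.2], from 57 UMIs in the primary tumour, a log2 ratio of 2.40 [2.03 to 2.82]. Over the alternatives this ratio ran from 1.80 to 4.63, the latter with T cells assigned by their own UMIs, which left S1pr1 at 306 CPM [291 to 321] against 11.8 CPM [5.65 to 21.7]. Klf2 had 537 CPM [518 to 557] and 122 CPM [99.8 to 147], a log2 ratio of 2.14 [1.87 to 2.43]. For these 4 genes the intervals of the levels were far apart, and each stayed at least 2-fold apart in the same direction in all 11 alternative settings, one of which, the minimum of 50 UMIs, cannot move a ratio. The log2 ratio of Ccr7 ran from 4.02 to 5.83, the latter with another clustering seed, and that of Klf2 from 1.74 to 3.09, the latter with no upper gene limit.

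The remaining members were closer. Cxcr3, with 71 and 36 UMIs, had a log2 ratio of -1.67 [-2.26 to -1.04], and under the assignment of T cells by their own UMIs it was -0.47. Cxcr4 had 50.4 CPM [44.7 to 56.7] in the LN and 114 CPM [92.7 to 138] in the primary tumour, a log2 ratio of -1.18 [-1.51 to -0.83]. It was past 2-fold in 5 of 11 alternatives, and its direction turned to 0.54 when no upper gene limit was set, where the primary tumour class held 315 cells. Cd69 had 200.01 CPM [188 to 212] and 159 CPM [134 to 187], a log2 ratio of 0.33 [0.08 to 0.60], under 2-fold, ran from -0.13 to 1.39 over the alternatives and was past 2-fold in 3 of the 11. Itgae was low in both tissues, 24.2 CPM [20.3 to 28.7] and 13.5 CPM [6.98 to 23.6], the latter from 12 UMIs. Its log2 ratio was 0.79 [-0.01 to 1.83], an interval that includes 0. It was past 2-fold, and higher in the LN, in 5 of the 11 alternatives, up to 1.79 [0.80 to 3.22] with T cells assigned by their own UMIs. Cxcr5 had 16 and 1 UMIs, under the minimum. Of the 3 residency marks among the members, Cxcr6 was thus far higher in primary tumour CD8 T cells, while Cd69 and Itgae were under 2-fold apart as reported and, where past 2-fold in an alternative, higher in the LN.

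**Figure D3:**
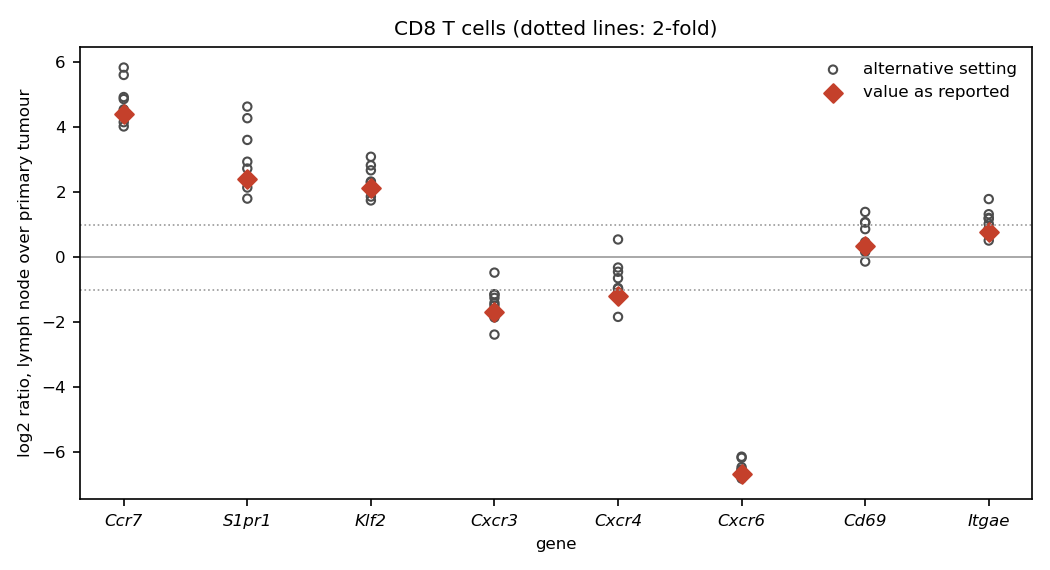
Log2 ratio of lymph node over primary tumour CD8 T cells for the 8 genes with enough UMIs, as reported (red) and in 11 alternative settings (open circles). Dotted lines mark 2-fold. Ccr7, S1pr1, Klf2 and Cxcr6 stayed past 2-fold in all settings, and Cxcr4 and Cd69 lay on both sides of 0.

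Related genes were read in the same CD8 T cells, and their counts stand against the same 6.24% and 31.1% of all genes, so that counts higher in the primary tumour start from a high share. Of other homing and egress genes, 12 of 18 had enough UMIs, of which 2 were at least 2-fold higher in the LN (among them Ccr9) and 6 in the primary tumour (among them Ccr2, Cx3cr1, Itga4, Itgb1 and Itgal), with a median log2 ratio of -1.77. Ccr9, a receptor for gut homing, had 23.5 CPM against 4.51 CPM in LN and primary tumour, a log2 ratio of 2.22 [0.99 to 4.28]. Cx3cr1, the fractalkine receptor of effector cells, had 1.26 CPM against 93.5 CPM. Of 9 transcription factor genes around egress and residency, 8 had enough UMIs, and 3 were apart in each direction. Lef1, Klf3 and Tcf7, linked to the naive state and quiescence, were higher in the LN, with log2 ratios of 3.10 [2.69 to 3.57], 2.21 [1.72 to 2.80] and 1.02 [0.70 to 1.38]. Bhlhe40, Prdm1 and Runx3, linked to effector and resident T cells, were higher in the primary tumour, with -4.60 [-4.87 to -4.35], -3.41 [-4.46 to -2.46] and -2.04 [-2.23 to -1.85]. Of 6 other residency genes, 4 were at least 2-fold higher in the primary tumour, Itga1 (-6.16 [-7.49 to -5.20]), Rgs1 (-3.61 [-3.79 to -3.45]), Xcl1 (-2.42 [-2.76 to -2.08]) and Cd101 (-1.37 [-2.56 to 0.07]), and Il7r was under 2-fold with 0.78 [0.59 to 0.99]. Of 15 ligands and regulators, 4 had enough UMIs and Cxcl10, Cxcl16 and Sgpl1 were higher in the primary tumour. The stress list of 11 genes that dissociation can raise summed to 2301 CPM in LN and 1854 CPM in primary tumour CD8 T cells, with 1 gene (Fos) at least 2-fold higher in the LN and 4 in the primary tumour. The 6 cancer markers summed to 65.8 and 381 CPM. The part of either in these ratios was not tested.

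The 3 primary tumour CD8 subclusters were not uniform. Cxcr6 was 1368 CPM [1265 to 1477] in the Csf1 subcluster, 849 CPM [724 to 989.7] in the Serpine2 subcluster and 464 CPM [378 to 564] in the Cxcr4 subcluster, with intervals apart. The Cxcr4 subcluster had 367 CPM [290.3 to 457] of Cxcr4, against 16.7 CPM [7.22 to 33.0] and 72.5 CPM [39.6 to 122] in the Csf1 and Serpine2 subclusters, so the higher Cxcr4 level of the primary tumour class lay mostly in it. It also had more Ccr7, 92.8 CPM [56.7 to 143], than the Csf1 subcluster, 6.27 CPM [1.29 to 18.3], and more S1pr1, 162 CPM [113 to 226] against 43.9 CPM [27.2 to 67.1]. The Serpine2 subcluster had 25.9 CPM [8.41 to 60.4] of Ccr7, which overlapped the Cxcr4 subcluster, and 0 CPM [up to 15.5] of S1pr1. Klf2 was 288 CPM [221 to 369] and 60.6 CPM [40.6 to 87.1] in the Cxcr4 and Csf1 subclusters, and Cd69 394 CPM [315 to 488] and 81.6 CPM [58.0 to 111]. The Ccr7 level of the Cxcr4 subcluster was still below that of every LN CD8 subcluster, with intervals apart. Its S1pr1 and Klf2 levels were below them too, but their intervals overlapped those of the LN subcluster led by Ly6c2, 224 CPM [195 to 256] and 373 CPM [335 to 414]. Its stress list summed to 3745 CPM, against 834 CPM in the Csf1 subcluster and 2273 CPM in the Serpine2 subcluster, and its part in these values was not tested.

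A cycling subcluster led by H1f5 and Pclaf, between Cd4 and Cd8 by its counts, had 54 cells in the primary tumour and 72 in the LN. Cxcr6 was 482 CPM [406 to 568] in its primary tumour cells and 21.96 CPM [12.8 to 35.2] in its LN cells, while Ccr7 was 16.8 CPM [5.47 to 39.3] and 366 CPM [324 to 411]. S1pr1 was 13.5 CPM [3.67 to 34.5] and 182 CPM [153 to 215]. The difference in Ccr7, S1pr1 and Cxcr6 between the tissues was thus also seen within 1 subcluster, but its cells were not alike, with Cd8a at 451 CPM [378 to 535] in the primary tumour and 71.0 CPM [53.5 to 92.5] in the LN. When the 56 primary tumour T cells of mixed Cd4 and Cd8 were added to the CD8 T cells there, the log2 ratio of Ccr7 was 4.54, that of S1pr1 2.72 and that of Cxcr6 -6.45.

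**Figure D4:**
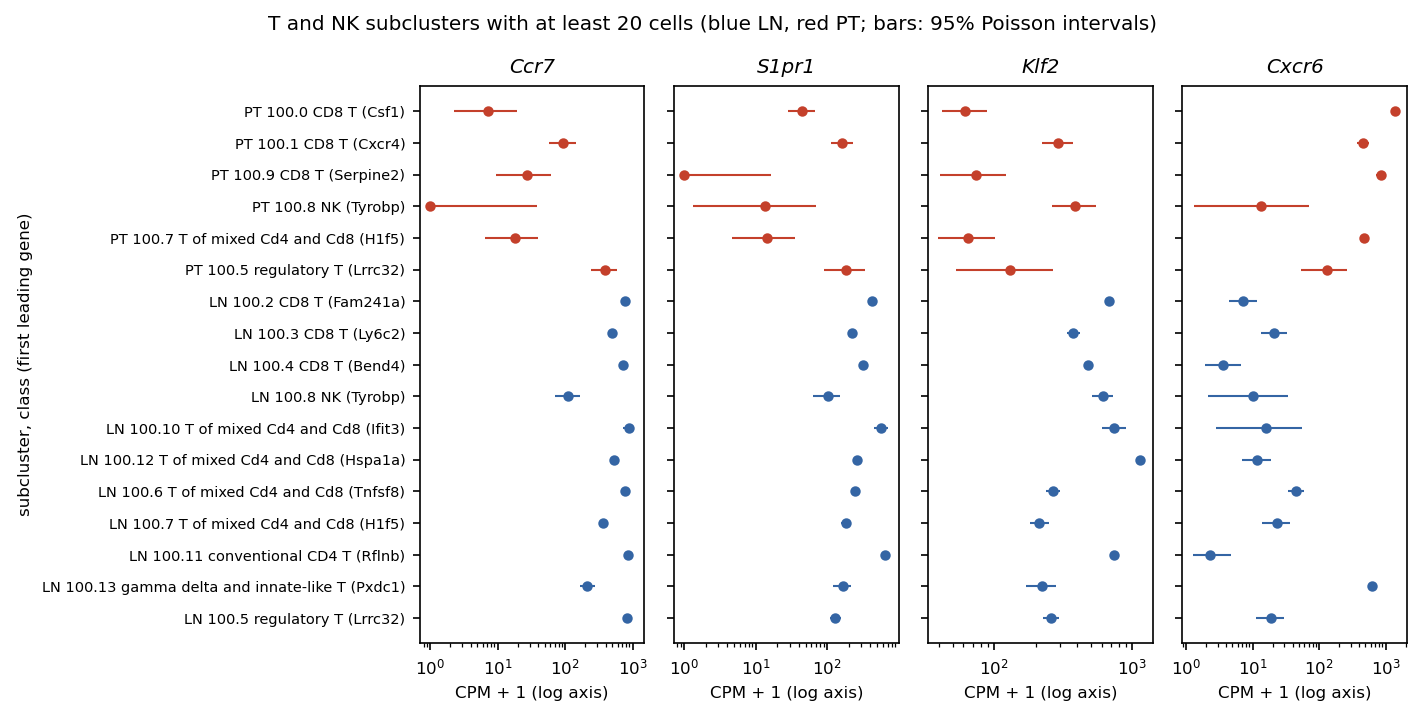
Level of Ccr7, S1pr1, Klf2 and Cxcr6 (CPM + 1, log axis) in the T and NK subclusters with at least 20 cells of a library, labelled by number, class and first leading gene. Red marks primary tumour (PT) and blue lymph node (LN) cells, with 95% Poisson intervals. Cxcr6 was at 129 CPM or more in all 5 PT T cell subclusters, a level that only gamma delta and innate-like cells reached in the LN.

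CD4 T cells without Foxp3 could be compared only when each T cell was assigned by its own UMIs, which gave 579 LN and 50 primary tumour cells with Cd4 and without Cd8a or Cd8b1. The clustering had named 1 such cell in the primary tumour, and its CD8 T cells also had Cd4, at 6.14 CPM against 81.1 CPM in LN and primary tumour, so a Cd4 UMI alone does not mark a CD4 T cell here. In the cells so assigned, Cxcr6 was 14.1 CPM [9.10 to 20.8] against 775 CPM [631 to 942] in LN and primary tumour, and Ccr7 699 CPM [661 to 739] against 15.3 CPM [1.86 to 55.4]. S1pr1 was 407 CPM [378 to 438] against 123 CPM [70.2 to 199] and Klf2 519.9 CPM [487 to 555] against 76.7 CPM [36.8 to 141]. Cd69 was 142 CPM [125 to 160.4] against 115 CPM [64.4 to 189.8], with overlapping intervals. The directions for Cxcr6, Ccr7, S1pr1 and Klf2 were those of CD8 T cells. With 1 conventional CD4 T cell named in the primary tumour, nearly all of these 50 cells came from its other T cell classes. Those were CD8 T cells (484), T cells of mixed Cd4 and Cd8 (56) and regulatory T cells (38). The shared directions can thus come from cells already compared as CD8 T cells, and are no check in a separate cell type.

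In regulatory T cells (268 in the LN, 38 in the primary tumour), 1 of 8 members was at least 2-fold higher in the LN, where 15.9% of 5082 genes were, and 3 in the primary tumour, where 21.3% were. The median log2 ratio was -0.48 over the members and -0.22 over all genes. The chemokine receptors Cxcr4, Cxcr6 and Cxcr3 were those higher in the primary tumour. Cxcr4 had 108 CPM [87.3 to 132] in the LN and 718 CPM [510.4 to 981] in the primary tumour, a log2 ratio of -2.75 [-3.29 to -2.16]. Cxcr6 had 18.0 CPM [10.3 to 29.2] and 129 CPM [51.8 to 265], a log2 ratio of -2.90 [-4.20 to -1.32]. Cxcr3 had 44.9 CPM [32.1 to 61.1] and 110.4 CPM [40.5 to 240.3], a log2 ratio of -1.40 [-2.55 to 0.23] whose interval includes 0. Each rested on few primary tumour UMIs, 39, 7 and 6, and each was past 2-fold in the alternatives that can move a ratio. With a minimum of 50 UMIs, Cxcr6 and Cxcr3 were no longer counted. Ccr7, with 831 CPM [772 to 893] and 386 CPM [239 to 591], had a log2 ratio of 1.07 [0.48 to 1.80], and was past 2-fold in 7 of 10 alternatives. Klf2 was just under 2-fold with 0.91 [-0.06 to 2.33], from 7 primary tumour UMIs. S1pr1 had 129 CPM [107 to 155] and 184 CPM [88.3 to 338], with overlapping intervals, a log2 ratio of -0.58 [-1.44 to 0.59], and changed direction to 0.60 when T cells were assigned by their own UMIs. Cd69 (-0.39 [-1.18 to 0.65]) and Itgae (0.36 [-1.03 to 2.88]) had intervals that include 0, and Itgae was at -0.08 with means of single-cell CPM. With T cells assigned by their own UMIs, Cd69 was past 2-fold and higher in the primary tumour, at -1.23 [-1.96 to -0.34].

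Of the other homing and egress genes, 6 of 11 with enough UMIs were at least 2-fold higher in primary tumour regulatory T cells (among them Gpr183, Ccr2, Itga4, Itgal and Selplg) and 0 in those of the LN. The adhesion genes Itga4 and Itgal had log2 ratios of -2.93 [-3.58 to -2.21] and -1.16 [-1.86 to -0.30]. Of the transcription factors, Lef1 was higher in the LN and Prdm1, Runx3, Bhlhe40 and Nr4a1 in the primary tumour, and the 3 residency genes with enough UMIs, Rgs1, Rgs2 and Il7r, were all higher in the primary tumour. Rgs1, a regulator of chemokine receptor signalling, had 396 CPM against 1435 CPM in LN and primary tumour. The stress list summed to 3438 CPM in the LN and 3846 CPM in the primary tumour. Of its 11 genes, 5 (Fos, Fosb, Egr1, Hspa1a, Hspa1b) were counted as at least 2-fold higher in the LN and 0 in the primary tumour. Each of the 5 had only 0, 1 or 2 UMIs in the primary tumour cells. Primary tumour regulatory T cells were shallow, with a median of 1017.5 UMIs against 2823, and 19 of the 38 had under 1000 UMIs.

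In NK cells (73 in the LN, 28 in the primary tumour), 5 members had enough UMIs. Ccr7 and S1pr1 were at least 2-fold higher in the LN, where 12.3% of 2194 genes were, and Cxcr4 in the primary tumour, where 9.71% were. Ccr7 had 24 UMIs and 109.7 CPM [70.3 to 163] in the LN and 0 UMIs in the primary tumour, which allows up to 37.5 CPM. Against that limit the LN level as measured was at least 2.93-fold higher, and with counting error in both sums the interval of the log2 ratio began at 1.14. In thinned LN NK cells a Ccr7 UMI was in 5.48% [1.51 to 13.4], an interval that holds the 2.1% of LN cancer cells. Unthinned, it was in 12.3% of LN NK cells and 19.2% of LN cancer cells, at median depths of 2543 and 34703 UMIs. S1pr1 had 22 UMIs and 101 CPM [63.0 to 152] in the LN and 1 UMI and 12.5 CPM [0.316 to 69.6] in the primary tumour, a log2 ratio of 2.46 [0.38 to 8.38]. Cxcr4 had 137 CPM [92.5 to 196] and 462 CPM [325 to 637], a log2 ratio of -1.75 [-2.50 to -1.02], and a UMI in 15.1% [7.77 to 25.4] and 52.0% [31.3 to 72.2] of thinned cells. Cd69, with 137 CPM [92.5 to 196] and 249.7 CPM [153 to 386], and Klf2, with 608 CPM [509 to 721] and 387 CPM [263 to 549], were under 2-fold apart. A single cell held 39 of the 133 LN and another 13 of the 31 primary tumour Klf2 UMIs, the levels without them were 440.3 CPM and 229 CPM, and with means of single-cell CPM the log2 ratio of Klf2 was -0.015. Cxcr6 had 2 UMIs in the LN and 1 in the primary tumour. The median log2 ratio was 0.63 over the members, also with Ccr7 at its bound, and 0.05 over all genes. T cells and NK cells with 2 or more UMIs of B cell markers had been left out, all 41 of them LN cells. The log2 ratio of S1pr1 was 3.34 with them kept, the highest of the 8 alternatives, and 0.996 with a mitochondrial limit of 10%, the lowest and under 2-fold. Neither Ccr7 nor S1pr1 was counted as apart with that limit, with no upper gene limit or at resolution 1.5, although the ratio of Ccr7 was past 2-fold in all 3 and that of S1pr1 in the last 2, since their sums were under the UMI minimum. With another clustering seed no cells were named NK, so no NK value was given there. In the NK cells as described, 4 of 6 B cell markers were at 0 in the LN and all 6 in the primary tumour, which the removal partly fixes, and T cell markers summed to 800.1 and 275 CPM. The part of other cells' RNA in the Ccr7 and S1pr1 ratios was not tested. Of the other homing and egress genes, 9 had enough UMIs, and Gpr183, an oxysterol receptor that positions lymphocytes, was higher in the LN with 1.47 [-0.04 to 4.03]. Of 7 transcription factors with enough UMIs, Klf3 was higher in the LN and Runx3 and Bhlhe40 in the primary tumour, and of 4 residency genes Xcl1 (1.29 [0.72 to 1.95]) and Il7r (37 and 0 UMIs) were higher in the LN and Rgs1 (-1.34 [-1.70 to -0.97]) in the primary tumour. The LN stress list was 4339 CPM and that of the primary tumour 3322 CPM, with 3 genes (Fos, Hspa1a, Dnajb1) at least 2-fold higher in the LN and 1 (Fosb) in the primary tumour. Hspa1a, a heat shock gene of that list, had 475 CPM against 24.97 CPM.

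In Fscn1+ mature DCs (101 in the LN, 34 in the primary tumour), 4 members had enough UMIs. Klf2 was at least 2-fold higher in the LN, where 9.79% of 3512 genes were, and Cd69 in the primary tumour, where 12.3% were. Ccr7 was the most detected member, with 2814 CPM [2665 to 2969] in the LN and 4024 CPM [3705 to 4363] in the primary tumour. The intervals were apart and the log2 ratio was -0.52 [-0.66 to -0.37], under 2-fold in all 9 alternatives. In thinned cells a Ccr7 UMI was in 74.4% [64.2 to 83.1] and 91.2% [76.3 to 98.1], with overlapping intervals, and the second draw gave the other order, 78.9% and 76.5%. A small LN subcluster of 21 shallow cells had 279 CPM [112 to 576], against 2955 CPM [2798 to 3119] in the other 80. Klf2 had 144 CPM [111 to 182] and 41.1 CPM [15.1 to 89.5], a log2 ratio of 1.70 [0.61 to 3.30], from 6 UMIs in the primary tumour. A single LN cell held 25 of the 68 UMIs, and without it the LN level was 91.9 CPM. The stress list summed to 4270.1 CPM in the LN and 3112 CPM in the primary tumour, with 3 genes (Fos, Fosb, Jun) at least 2-fold higher in the LN and 0 in the primary tumour, and its part in the Klf2 ratio was not tested. Cd69 had 16 and 10 UMIs and a log2 ratio of -1.05 [-2.25 to 0.28], whose interval includes 0, and was past 2-fold in 7 of the 9, one of them the minimum of 50 UMIs, which its sums did not reach. Cxcr4 had 82.3 CPM [58.5 to 113] and 137 CPM [83.7 to 212], with overlapping intervals. Itgae had 0 UMIs in the LN and 4 in the primary tumour, under the minimum. The median log2 ratio was -0.63 over the members and -0.11 over all genes. Of the related genes with enough UMIs, 1 of 4 other homing and egress genes (Itga4), 2 of 5 transcription factors (Bhlhe40, Nr4a1), 1 of 3 residency genes (Il7r) and 1 of 3 ligands and regulators (Sgpl1) were higher in the primary tumour. Tcf7, a transcription factor, was the only one of them higher in the LN, with 1.76 [0.47 to 3.85]. Itga4 had 339.8 CPM against 733 CPM and Il7r 158 CPM against 494 CPM in LN and primary tumour.

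Within the LN, the genes also varied between subclusters of a class. The 12 subclusters of IgD+ CD23+ B cells with at least 20 cells had Ccr7 from 461 to 895 CPM and S1pr1 from 129 to 304 CPM, while Klf2 ran from 158 to 1855 CPM and Cd69 from 211 to 592 CPM. Klf2 was highest in the subcluster led by Hspa1a and Hspa1b, 1855 CPM [1726 to 1991], where the stress list summed to 8096 CPM against a median of 1768 CPM. The T cell subcluster led by Hspa1a and Jun had the highest Klf2, 1127 CPM [1071 to 1187], and Cd69, 539.6 CPM [500.5 to 581], of the 10 LN T cell subclusters, with a stress list of 7392 CPM. Gamma delta and innate-like T cells had a stress list of 7468 CPM and Klf2 at 220.4 CPM. Klf2 was lowest, 158 CPM [141 to 177], and Cd69 highest, 592 CPM [558 to 628], in the same B cell subcluster, one led by Gla, Tob2 and Phf23 with 1002 cells and a stress list of 3259 CPM. Klf2 and Cd69 were thus high together in the T cell heat shock subcluster and opposite in the Gla subcluster of B cells. The LN classes include these stress-rich cells, and the part of stress in their Klf2 and Cd69 levels was not tested.

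**Figure D5:**
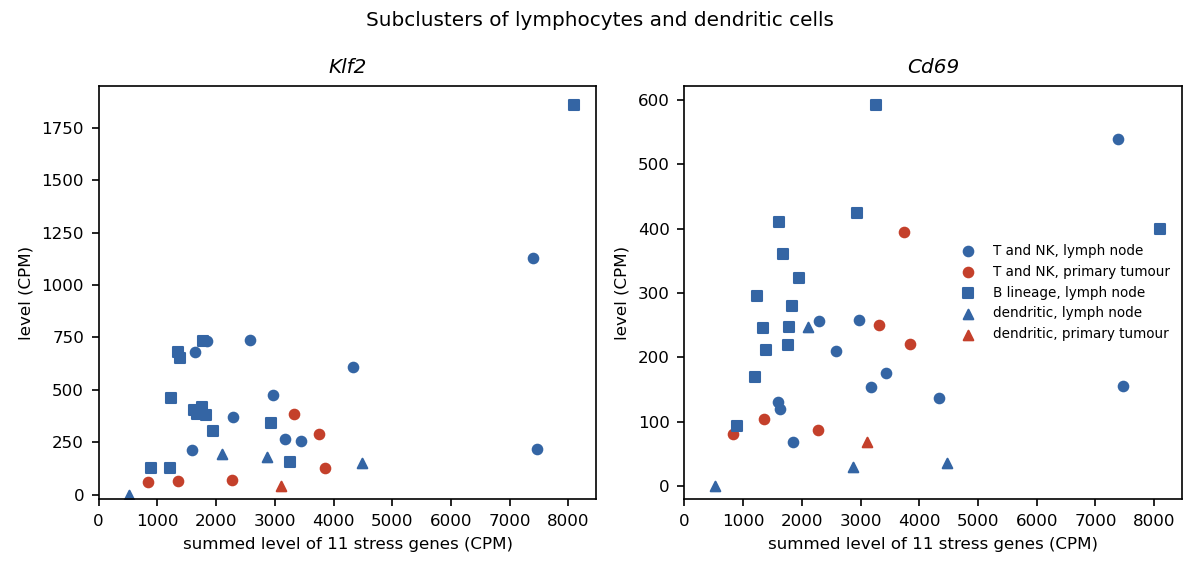
Level of Klf2 (left) and Cd69 (right) in each subcluster (CPM) against the summed level of the 11 genes of the stress list (CPM). Shapes mark T and NK, B lineage and dendritic subclusters, blue the lymph node and red the primary tumour. The 2 subclusters with most Klf2 (1127 and 1855 CPM) had stress levels of 7392 and 8096 CPM, and gamma delta and innate-like T cells had 7468 CPM of the stress list with 220.4 CPM of Klf2.

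Among LN CD8 T cells, the subcluster led by Fam241a and Rflnb had the highest Ccr7, 766 CPM [729.7 to 803], S1pr1, 428 CPM [401 to 456], and Klf2, 679.9 CPM [646 to 715], and the lowest Cd69, 121 CPM [107 to 136]. The subcluster led by Bend4 and Fam241a had 312 CPM [289 to 335] of S1pr1 and 259 CPM [238 to 281] of Cd69. The Ly6c2 subcluster had the highest Cxcr3, 38.4 CPM [26.9 to 53.1], Cxcr4, 111 CPM [90.6 to 134], and Cxcr6, 20.3 CPM [12.2 to 31.6], and the lowest Ccr7, 499 CPM [455 to 546], and Itgae, 3.20 CPM [0.660 to 9.35]. Its Cxcr6 was still far under the levels of the primary tumour CD8 subclusters. The 970 conventional CD4 T cells were a single subcluster led by Rflnb, with the highest S1pr1 of the LN T cell subclusters. Next to it in Ccr7 was a subcluster of 49 cells led by the interferon genes Ifit3 and Ifit1, with 880.1 CPM [728 to 1055]. The subcluster led by Tnfsf8 and Tbc1d4, between Cd4 and Cd8 by its counts and with Cd4 among its leading genes, had the highest Cxcr5 of these, 13.9 CPM [7.78 to 22.9], which overlapped that of regulatory T cells.

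The last question was whether the genes were found in the same cells, at 1000 UMIs per cell. Shallower cells were left out, among them 107 of 484 primary tumour and 4 of 1449 LN CD8 T cells. Among LN CD8 T cells, an S1pr1 UMI was in 36.7% [32.6 to 40.9] of 545 cells with Klf2 and 26.3% [23.5 to 29.3] of 900 cells without. For Cd69 the order was the other way, with 21.8% [16.7 to 27.6] of 234 cells with Cd69 and 31.9% [29.3 to 34.6] of 1211 cells without. A second random draw gave 35.3% and 27.0% for Klf2, and 27.9% and 30.5% for Cd69, so the Cd69 gap was smaller in that draw. Regulatory T cells of the LN had S1pr1 in 24.1% [13.5 to 37.6] of 54 with Klf2 and 7.18% [4.07 to 11.6] of 209 without, and 17.6% and 8.49% in the second draw. Primary tumour CD8 T cells had it in 25% [11.5 to 43.4] of 32 with Klf2 and 2.90% [1.40 to 5.27] of 345 without, and 17.6% and 2.92% in the second draw. Thinned cancer cells had an S1pr1 UMI in 0.463% in the primary tumour and 0.809% in the LN. In LN conventional CD4 T cells the shares were 49.9% [45.1 to 54.7] of 431 and 45.2% [40.9 to 49.5] of 529, and in IgD+ CD23+ B cells 22.1% [19.9 to 24.4] of 1360 and 20.2% [18.8 to 21.7] of 3080, with overlapping intervals. S1pr1 and Ccr7 showed no such gap in LN CD8 T cells, with 29.7% [26.2 to 33.3] of 671 and 30.7% [27.5 to 34.1] of 774. In primary tumour CD8 T cells there was one, with S1pr1 in 35.7% [12.8 to 64.9] of 14 cells with Ccr7 and 3.58% [1.92 to 6.05] of 363 without, and 20% and 3.59% in the second draw. By Cd69, S1pr1 there was in 10.3% [2.87 to 24.2] of 39 with and 4.14% [2.28 to 6.85] of 338 without, the opposite order to the LN but with overlapping intervals, and 12.2% and 3.05% in the second draw. Several of these classes hold more than 1 subcluster, so a gap can lie between subclusters as well as within them. In primary tumour CD8 T cells, Ccr7 was in 1.83% [0.502 to 4.63] of 218 cells with Cxcr6 and 6.29% [3.06 to 11.3] of 159 without, with overlapping intervals.

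The ligands were read in all classes with at least 20 cells. Cxcl16, the ligand of CXCR6, was highest in mature DCs of both tissues, 651 CPM [527 to 796] in the primary tumour and 732 CPM [657 to 814] in the LN, with overlapping intervals. Primary tumour monocytes and macrophages had 276 CPM [261 to 291]. Mature DCs held only 95 and monocytes and macrophages 1237 of the 19794 Cxcl16 UMIs of kept primary tumour cells, so most lay in other cells. Cxcl12, the ligand of CXCR4, was highest in endothelial cells, 116 CPM [85.6 to 155] in the primary tumour and 194 CPM [180.5 to 209] in the LN, and primary tumour fibroblasts and pericytes had 116 CPM [101 to 132]. Of the CXCR3 ligands, Cxcl9 was highest in primary tumour endothelial cells, 223 CPM [179 to 274], and in LN conventional DCs, 189 CPM [159.8 to 222]. Primary tumour fibroblasts and pericytes, with 172 CPM [154 to 192], overlapped the endothelial cells there. Cxcl10 was highest in primary tumour monocytes and macrophages, 616 CPM [593 to 639.6], and LN endothelial cells, 1713 CPM [1671 to 1756]. The CCR7 and CXCR5 ligands were sparse, with 67 Ccl19, 38 Ccl21a and 72 Cxcl13 UMIs in all kept LN cells. Stromal cells are a known source of them, and the LN fibroblast and pericyte class held 5 cells. Cdh1, the gene of E-cadherin, had 97 UMIs in kept primary tumour cells and 29 in kept LN cells, with 51.8 CPM [30.7 to 81.9] in LN plasmacytoid DCs. In the primary tumour it was highest in CD8 T cells, 19.2 CPM [11.2 to 30.7] from 17 UMIs, which overlapped neutrophils at 16.1 CPM [5.90 to 35.0].

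The genes whose levels over the 26 sums were most like each member were named by rule. For Ccr7 they were Rrad, Il21r and Rgs10 (r from 0.81 to 0.85), for S1pr1 Gimap6, Upf2 and Gimap8 (0.80 to 0.82) and for Klf2 Zhx1, Rflnb and Klf3 (0.70 to 0.75). For Cxcr6 they were Pdcd1, the gene of the inhibitory receptor PD-1, Trgc2 and Tnfsf11 (0.84 to 0.91), and for Cxcr3 Trp53inp1, Ctla4 and Spock2 (0.73 to 0.75). Cxcr4 was most like Itsn2, Arhgap26 (ENSMUSG00000036452) and Birc3 (0.80 to 0.85), Cd69 most like Dock2, Rac2 and Ptprcap (each 0.87) and Itgae most like Tnfrsf25, Cbarp and Ramp3 (0.79 to 0.86).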

How the data were processed

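The files the authors deposited hold unnormalised UMI counts, with 12427 cells and 173317475 UMIs for the primary tumour, and 11617 cells and 122207852 UMIs for the LN. The submitters' processing notes name Cell Ranger 2.1.1 and GRCm38, and the file headers name Cell Ranger 5.0.0. These include cells outside the limits of the study's methods, which were applied here (more than 200 genes, no more than 6000, mitochondrial share up to 5%), and Scrublet doublets were removed (4.27% and 5.98%, the latter as the top 6% of scores since the automatic threshold marked 0 LN cells). Median depth of kept cells was 9383 and 2324 UMIs. Clustering (scanpy 1.11.5, Leiden, resolution 1, 30 components, cell cycle regressed) left out the members and the gene lists. Lymphocytes and myeloid cells were clustered again, and subclusters named from markers by thresholds set after the data were seen, with CD8 T cells needing 90% of Cd4, Cd8a and Cd8b1 CPM in the last pair. T and NK cells with 2 or more UMIs of 6 B cell markers (41, all LN) were left out, and 79 LN cells took no name. Neighbours were found exactly and components rounded so that the classes repeat between machines. This and the B cell rule were set after an earlier clustering of these cells had been seen. Log2 ratios added 0.5 count to each sum. The members, lists and rules were chosen with earlier results of these data known. Named genes are the members, the genes of the lists by the 2-fold rule or as the highest class, the 3 genes most like each member (maximum of at least 50 CPM) and genes that lead a subcluster, and some genes of the lists are counted but not reported here by name. Ratios, intervals and thinning were checked on simulated Poisson counts. These had no clumping of UMIs in single cells, so coverage with such clumping was not checked. The alternatives were a mitochondrial limit of 10%, no upper gene limit, doublets kept, resolution 1.5, means of single-cell CPM, a minimum of 50 UMIs, centring on the median of all genes, subsets from each T cell's own UMIs, another thinning draw, another clustering seed, keeping T and NK cells with B cell markers, and leaving out the cell with most UMIs.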

Additional observations from a re-analysis of the deposited data

How the results depend on the processing

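No paired analysis was possible because each group has 1 library, so the groups share a single replicate number. Of 244 alternative log2 ratios, 213 stayed within the counting interval of the reported value, 30 did not, and 1 of a member at least 2-fold apart changed sign. That was Cxcr4 in CD8 T cells, at 0.54 with no upper gene limit, and the cause was not tested. Of 1053 alternative levels 932 stayed within the interval and 121 did not. In CD8 T cells the number of members at least 2-fold apart was 6 as reported and between 6 and 7 in the alternatives. With T cells assigned by their own UMIs, Cd69 and Itgae were past 2-fold and Cxcr3 and Cxcr4 were not. In regulatory T cells it was 4 as reported and 2 with a minimum of 50 UMIs. In NK cells it was 3 as reported and 1 with a minimum of 50 UMIs, a mitochondrial limit of 10%, no upper gene limit or resolution 1.5, where Ccr7, and S1pr1 in all but the mitochondrial setting, stayed past 2-fold but were under the UMI minimum. In mature DCs it was 2 as reported and 1 with centring on the median, a minimum of 50 UMIs or means of single-cell CPM. The bounds of the T cell classes moved with the clustering. Primary tumour CD8 T cells numbered 484 as reported, 315 with no upper gene limit, 352 with another random seed and 695 with a mitochondrial limit of 10%, and T cells of mixed Cd4 and Cd8 there 56 as reported, 217 with no upper gene limit and 215 with another seed. With another seed no cells were named NK. Another seed, keeping T and NK cells with B cell markers and adding the T cells of mixed Cd4 and Cd8 were chosen after seeing the data. Depth limits the primary tumour values of regulatory T and NK cells, whose sums held 54337 and 80083 UMIs.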
